A study of Drosophila melanogaster with 39 samples.

Results

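The 10 genes described here are the testis forms of TFIID subunits in Drosophila melanogaster and the canonical subunits they resemble. They were taken by name, out of 13659 genes measured, as 5 pairs of a testis form with its canonical counterpart: nht with Taf4, can with Taf5, mia with Taf6, sa with Taf8 and Taf12L with Taf12. All 10 were found in both expression tables and all passed the filter on low values, which kept genes with a mean signal of 1 or more in a table. RNA of whole testes gave 21 libraries, 3 from each of 7 groups, and sorted spermatocytes gave 9 columns, 3 from each of 3 groups. The bulk controls were w1118 and a second stock, w1118 iso. The bulk mutants were transheterozygous for Cdc73L (TH1), Ctr9L (TH2), Leo1L (TH1), Leo1L from the inverted cross (TH1) and Paf1L (TH2). Their products resemble subunits of the PAF1 complex, which in all cells travels with elongating RNA polymerase II. The sorted cells carried GFP-tagged Cdc73L from its own locus in all 3 groups, which were a control (w1118), homozygous Leo1L FS1 mutants and homozygous Paf1L FS1 mutants. All flies were 1 to 3 days old. Sorting on GFP reached 85% purity or more, according to the labels, and each sorted column joins 2 libraries, with and without ribosomal RNA depletion.

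TFIID is the general factor that carries TBP to promoters, and its TBP-associated factors (TAFs) hold the complex together largely through histone-fold pairs, such as Taf4 with Taf12. In Drosophila primary spermatocytes the testis TAFs are required for the transcription of many spermatid differentiation genes. Loss of nht, can, mia, sa or Taf12L arrests spermatogenesis at the entry into meiosis, and the products have been reported to act against Polycomb repression at their targets. The canonical subunits are used in all cells.

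The testis forms lie apart from one another in the genome. In the Ensembl annotation (release 115, assembly BDGP6.54), nht (no hitter, the TAF4 homolog) is at 2L:15317954-15318901 on the minus strand. The gene can (cannonball, the TAF5 homolog) is at 3L:10263909-10267111 on the minus strand. The TAF6 homolog mia (meiosis I arrest) is at 3R:5548115-5551168 on the minus strand. The TAF8 homolog sa (spermatocyte arrest) is at 3L:21405425-21406738 on the minus strand, wholly inside rgn, which is transcribed from the other strand and shares 0 exon bases with it. Taf12L, the TAF12 homolog also known as ryan express, is at 2L:4700835-4701485 on the minus strand, wholly inside dcma on the other strand, again with 0 shared exon bases. The canonical genes are Taf4 at 3L:16113212-16121651 (plus), Taf5 at 2R:10877312-10879673 (minus), Taf6 at 3L:19599088-19601382 (plus), Taf8 at X:18101970-18103482 (plus) and Taf12 at 3R:11678386-11679690 (minus). The strand setting of the counting is not given in the sources used here, so reads of sa and Taf12L cannot be told apart from those of rgn and dcma introns.

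Approximate depth was 8.69 to 12.8 M reads (M, 1e+06) in bulk libraries and 7.97 to 20.9 M in sorted columns, and a signal worth 3 reads was 0.224 to 0.376 and 0.145 to 0.383, which covers counting error only. The targeted genes were low in the libraries labelled for them. CG10887 (Leo1L) went from 63.0 in bulk controls to 16.5 and 17.7 in the Leo1L crosses, CG12674 (Paf1L) from 55.0 to 4.86 and CG9899 (Ctr9L) from 116 to 10.3. In sorted columns CG10887 went from 20.2 to 7.38 and CG12674 from 21.8 to 1.03, and no such check was made for Cdc73L. All 5 spermatocyte markers (aly, comr, topi, tomb, kmg) were detected in both tables. Their summed signal was 209 to 230 in bulk controls and 238 to 276 in bulk mutants, and 103 to 122, 148 to 170 and 162 to 186 in sorted control, Leo1L and Paf1L columns. The late spermatid markers (5 genes, none at 0) summed to 1242.6 to 1622.2 in bulk controls, 1048.4 to 1310.7 in bulk mutants and 1504.0 to 1824.5 in sorted controls, so the sorted columns held these transcripts too. Muscle markers summed to 529 to 791 in bulk controls and 24.1 to 33.5 in sorted controls. In bulk mutants 7 of 7 muscle markers were lower in Ctr9L (median log2 fold change -0.65) and inverted-cross mutants (-0.91), 4 of 7 in Paf1L mutants (-0.51) and 0 of 7 in Cdc73L and Leo1L mutants. The tables were normalized separately, so levels set across them are descriptions. In bulk testis, fewer cells of a type and less RNA per cell cannot be told apart.

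The testis forms were not uniformly scarcer or more abundant than the general subunits. The deposited values look like scaled reads that were not divided by gene length, so levels of different genes are given as signal per kilobase of the longest annotated transcript. Over the 6 bulk control libraries the highest levels per kilobase were those of sa, 57.3 ± 6.98 (SD, n = 6), and Taf12L, 53.9 ± 10.6, which overlapped. They were followed by Taf4 at 33.1 ± 4.85 and nht at 25.7 ± 2.81. The next 4 genes were close together, with Taf8 at 17.0 ± 2.51, mia at 15.9 ± 0.626, Taf6 at 14.9 ± 1.59 and can at 14.1 ± 0.901, and differed little relative to their spread. Taf12 at 6.52 ± 1.11 and Taf5 at 4.38 ± 0.625 were the lowest of the 10.

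Sorted control cells gave another order. Taf4 (34.2 ± 3.14 per kilobase, SD, n = 3), Taf12L (32.7 ± 9.08) and sa (27.5 ± 2.52) were highest, then mia (18.9 ± 1.22) and Taf8 (14.3 ± 0.619). After these came nht (8.10 ± 3.31), Taf6 (7.93 ± 1.30) and can (5.87 ± 0.380), and Taf12 (1.26 ± 0.150) and Taf5 (0.758 ± 0.0639) were again the lowest. Taf5 and Taf12 thus had a low level in the sorted cells, with a signal of 1.62 to 1.91 for Taf5 and 1.39 to 1.76 for Taf12 in control columns, so their changes there have wide errors.

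Within a library, the ratio of testis to canonical form is free of library scaling. The ratio per kilobase of Taf12L to Taf12 was 8.61 ± 2.86 in bulk controls (n = 6) and 26.3 ± 8.64 in sorted controls (n = 3). That of can to Taf5 was 3.26 ± 0.332 and 7.77 ± 0.643, and that of mia to Taf6 1.08 ± 0.124 and 2.42 ± 0.274. In these 3 pairs the testis form had the larger share in the sorted cells. The other 2 pairs went the other way. The ratio of sa to Taf8 was 3.46 ± 0.743 in bulk and 1.94 ± 0.264 in sorted controls, and nht to Taf4 was 0.797 ± 0.193 and 0.232 ± 0.0803, so that among the 5 means only that of nht to Taf4 was below 1 in both tables. No test was made across the tables.

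**Figure D1:**
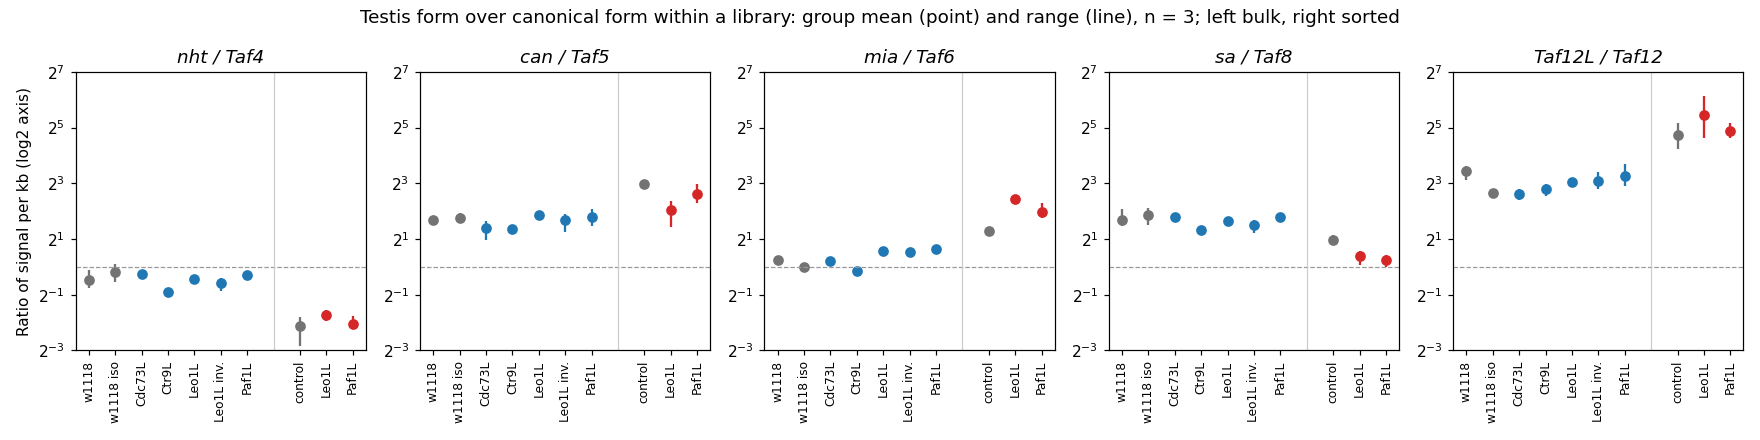
Ratio of each testis form to its canonical counterpart, in signal per kilobase of the longest annotated transcript (log2 axis), as the mean (point) and range (line) of the 3 libraries of each bulk group and the 3 columns of each sorted group. The mean ratio of mia to Taf6 stood above the controls in the bulk Leo1L, inverted-cross and Paf1L mutants and in both sorted mutants, and the bulk Taf12L to Taf12 ratio was 10.9 in w1118 and 6.28 in w1118 iso.

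Of all 10 genes, mia was the one that rose in both tables. Its signal in bulk controls was 38.1, 39.5 and 36.8 in w1118 and 35.0, 37.5 and 37.4 in w1118 iso. In Leo1L mutants it was 58.1, 56.3 and 61.6, in the inverted cross 60.4, 61.8 and 57.9, and in Paf1L mutants 63.6, 58.1 and 56.8. Every one of these 9 mutant libraries was above every control library. Against the control mean of 37.4 ± 1.47 (SD, n = 6), the log2 fold change of mia was 0.64 ± 0.061 (SE) in Leo1L (1.55-fold, limma, Benjamini-Hochberg adjusted p = 3.16e-07), 0.67 in the inverted cross (1.59-fold, limma adjusted p = 1.91e-07) and 0.65 in Paf1L mutants (1.57-fold, limma adjusted p = 2.46e-07). These changes of mia passed in each alternative setting without a fold limit and with any single library left out. Summed spermatocyte markers were also higher in bulk mutants, as given above, with 2 of 5 called in each of these 3, as were the early germline markers (5 genes, 52.0 to 72.8 in controls and 63.8 to 94.4 in mutants), and their part in the rise of mia was not tested. For the 7 muscle markers the median log2 fold change was -0.18 in Leo1L mutants, with none called. In the inverted cross it was -0.91, with 7 of 7 lower. The changes of mia in these 2 groups were 0.64 and 0.67, and a part of muscle in them was not tested either.

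The Cdc73L and Ctr9L mutants differed less from the controls. In Cdc73L mutants mia was at 44.1, 42.9 and 44.3, each above every control, a log2 fold change of 0.22 ± 0.061 (limma adjusted p = 0.0139). Without Cdc73L replicate 3 the change was 0.22 with a limma adjusted p of 0.0532, and against the w1118 stock alone 0.19 with 0.0586. Markers of the accessory gland, which lies beside the testis, were lower in these mutants, where 9 genes summed to 23.4 to 311 against 439 to 1940.1 in bulk controls. With a score of these markers as a covariate the change of mia was 0.17 (limma adjusted p = 0.159). In Ctr9L mutants mia was at 45.4, 42.7 and 37.5, the last of them within the control range, and the change of 0.16 did not pass (limma adjusted p = 0.0732). Without that library, replicate 3, it was 0.23 with a limma adjusted p of 0.0191.

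In sorted spermatocytes mia rose as well. The control columns were at 41.2, 46.5 and 45.7, the Leo1L columns at 96.4, 94.7 and 92.6 and the Paf1L columns at 74.0, 78.7 and 91.4, with no overlap between mutants and controls. From 44.5 ± 2.86 the mean of mia went to 94.6 ± 1.92 in Leo1L (SD, n = 3 each), a log2 fold change of 1.07 ± 0.103 (2.10-fold, limma adjusted p = 9.39e-06), and to 81.4 ± 8.98 in Paf1L mutants, 0.85 (1.81-fold, limma adjusted p = 5.62e-05). Both changes passed in each alternative without a fold limit and with any single column left out. The bulk and sorted changes come from different alleles and separately normalized tables, and whether they differ was not tested. Between the sorted mutants the difference in mia, Paf1L minus Leo1L, was -0.22 (limma adjusted p = 0.371). Of the 5 spermatocyte markers 1, topi, was called higher in each sorted mutant. Its rise from 79.2 to 123 and 135 makes up most of the higher sum. The log2 fold changes of aly and comr were -0.15 and -0.44 in Leo1L and -0.09 and -0.27 in Paf1L mutants, none called. The median over the 5 markers was 0.30 in sorted Leo1L and 0.19 in sorted Paf1L mutants. Both kmg and tomb were at or above it, without a call. The part of these markers in the sorted rise of mia was not tested.

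**Figure D2:**
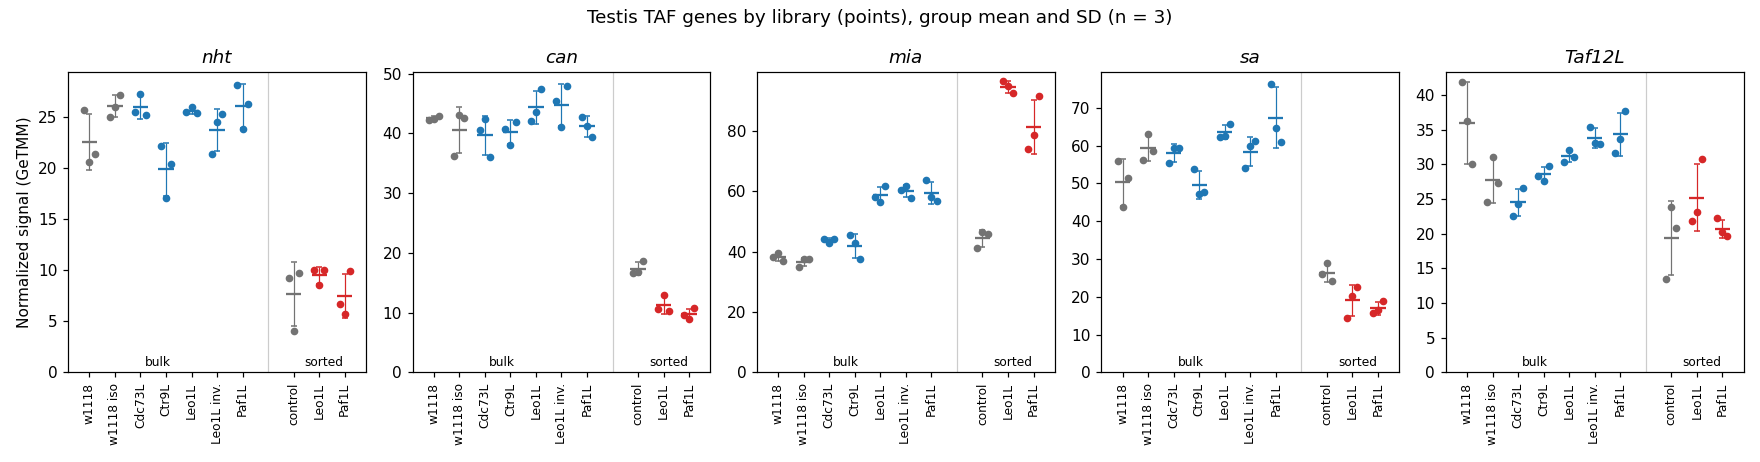
Signal of the 5 testis forms in every bulk library (left of the vertical line) and every sorted column (right of it), with the mean and SD of each group (n = 3). For mia, the Leo1L, inverted-cross and Paf1L libraries lie between 56.3 and 63.6 against 35.0 to 39.5 in bulk controls, and the sorted mutants between 74.0 and 96.4 against 41.2 to 46.5, while can was lower in sorted mutants than in sorted controls.

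In contrast to mia, can changed only in the sorted cells. The bulk controls held 42.3, 42.5 and 43.0 in w1118 and 36.2, 43.1 and 42.6 in w1118 iso. Bulk mutant libraries ran from 36.0 to 48.0 and overlapped the controls in every group. The log2 fold changes of can in the 5 bulk mutants were -0.07 to 0.10 with an SE of 0.071, and the lowest limma adjusted p was 0.281. In sorted controls can was at 16.6, 16.8 and 18.6, in Leo1L mutants at 10.6, 13.0 and 10.2 and in Paf1L mutants at 9.60, 9.01 and 10.7, so that all 6 mutant columns were below all controls. From 17.3 ± 1.12 the mean of can fell to 9.78 ± 0.879 in Paf1L mutants (SD, n = 3 each), a log2 fold change of -0.77 ± 0.176 (0.59-fold, limma adjusted p = 0.00630), which passed with any single column left out. In Leo1L mutants it fell to 11.3 ± 1.52, a change of -0.59 (0.67-fold, limma adjusted p = 0.0369). That call was less secure. Its limma adjusted p was 0.0623, 0.0573 and 0.116 without control replicate 1, 2 or 3, and 0.102 and 0.145 without Leo1L replicate 1 or 3, with changes of can between -0.62 and -0.52. A test of whether a bulk and a sorted change differ was not made, since the tables were normalized separately.

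The bulk signal of sa was slightly higher in some mutants and depended on the control stock. It was 56.0, 43.7 and 51.3 in w1118 and 56.3, 63.1 and 58.5 in w1118 iso, with no overlap between the stocks, as for 20.5% of all genes, although their difference of 0.24 did not pass (limma adjusted p = 0.122). Paf1L mutants had 76.4, 64.7 and 61.0 and Leo1L mutants 62.2, 62.6 and 65.6. Against the mean of both stocks, 54.8 ± 6.68 (SD, n = 6), sa rose by 0.30 ± 0.080 in Paf1L (limma adjusted p = 0.00980) and by 0.22 in Leo1L mutants (limma adjusted p = 0.0491). Against w1118 iso alone the changes of sa were 0.18 (limma adjusted p = 0.203) and 0.10 (0.487). Without Paf1L replicate 1 the Paf1L change was 0.20 (limma adjusted p = 0.104). The Leo1L call for sa ended in 7 of 9 fits with a library left out, for w1118 replicates 2 and 3, w1118 iso replicates 1 and 3 and each Leo1L replicate, at limma adjusted p values of 0.0569 to 0.154, and with the replicate block at 0.0638. In the inverted cross sa was at 54.0, 60.0 and 61.2, in Cdc73L mutants at 55.3, 59.3 and 59.4 and in Ctr9L mutants at 53.8, 47.1 and 47.7, all overlapping the controls.

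Sorted cells showed sa on the other side. The controls held 25.9, 28.9 and 24.1, Leo1L mutants 14.5, 20.2 and 22.5 and Paf1L mutants 15.6, 16.5 and 18.9, so every mutant column was below every control. From 26.3 ± 2.41, sa fell to 17.0 ± 1.70 in Paf1L mutants (SD, n = 3 each), a log2 fold change of -0.60 ± 0.175 (limma adjusted p = 0.0226). Leaving out control replicate 1 or 2 or Paf1L replicate 1 gave -0.61, -0.54 and -0.55 with limma adjusted p values of 0.0511, 0.0719 and 0.0756. In Leo1L mutants sa was at 19.1 ± 4.07, a change of -0.46 that did not pass (limma adjusted p = 0.0898). The surrounding gene rgn moved in the opposite direction there, at a signal far below that of sa. It went from 0.410 in sorted controls to 2.84 and 2.69 in Leo1L and Paf1L mutants (limma adjusted p = 0.00917 and 0.0118). In bulk controls rgn was at 26.1. It was lower in bulk Ctr9L (-0.50, limma adjusted p = 0.00572) and inverted-cross mutants (-0.44, 0.00883), and did not pass in the other bulk mutants. The changes of sa in those 2 groups were -0.14 and 0.10 and did not pass.

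For nht the bulk libraries were close together. Controls held 25.7, 20.6 and 21.4 in w1118 and 25.0, 26.0 and 27.2 in w1118 iso. Ctr9L mutants held 22.2, 17.1 and 20.4, and their mean of 19.9 ± 2.55 was below the control mean of 24.3 ± 2.66 by a log2 fold change of -0.28 ± 0.087 (limma adjusted p = 0.0272). The nht call ended against w1118 alone (-0.18, limma adjusted p = 0.230) and without w1118 replicate 1, Ctr9L replicate 2 or Ctr9L replicate 3 (limma adjusted p = 0.0525, 0.202 and 0.0580). It also ended when each library was rescaled to one total (-0.25, limma adjusted p = 0.0981). The 12 libraries of the other bulk mutants ran from 21.4 to 28.1 and none of those groups passed. Sorted columns held 9.26, 4.07 and 9.71 in controls, 10, 8.54 and 9.99 in Leo1L and 6.72, 5.76 and 9.94 in Paf1L mutants. The wide control spread gave nht an SE of 0.294 there, and changes of 0.35 and 0.01 did not pass (limma adjusted p = 0.483 and 0.983).

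Taf12L differed between the control stocks themselves. Its signal was 41.8, 36.2 and 30.0 in w1118 and 24.6, 31.1 and 27.3 in w1118 iso, a log2 difference of -0.36 for iso against w1118 (limma adjusted p = 0.0412), in a comparison that called 8.69% of all genes. The stock difference was no longer called without w1118 replicate 1 or 2 or w1118 iso replicate 1 or 3. Cdc73L mutants held 22.6, 24.3 and 26.6. Their mean of 24.5 ± 2.05 was below the mean of both stocks, 31.8 ± 6.24, by a log2 fold change of -0.35 ± 0.092 (limma adjusted p = 0.0118). Against w1118 iso alone the change of Taf12L was -0.17 (limma adjusted p = 0.296), without Cdc73L replicate 1 it was -0.29 (0.0682), rescaled to one total -0.28 (0.0671) and with the accessory gland score -0.30 (0.102). The other 12 bulk mutant libraries had 27.6 to 37.7, within the range of the controls, and no other group passed against both stocks. Against w1118 alone, Taf12L was lower in Ctr9L mutants (-0.31, limma adjusted p = 0.0442). Against w1118 iso alone, Taf12L was higher in Paf1L mutants (0.30, limma adjusted p = 0.0483). In sorted cells Taf12L was at 13.4, 23.8 and 20.8 in controls, 21.8, 23.1 and 30.7 in Leo1L and 22.2, 20.2 and 19.7 in Paf1L mutants, with overlapping groups and changes of 0.39 and 0.13 (SE 0.203, limma adjusted p = 0.230 and 0.682).

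Among the canonical subunits, Taf6, the histone-fold partner of Taf9 and counterpart of mia, had its largest change in Ctr9L mutants. Bulk controls held 29.4, 29.3 and 26.5 in w1118 and 31.9, 36.2 and 30.2 in w1118 iso. Ctr9L mutants held 40.0, 41.8 and 40.2, above every control, a log2 fold change of 0.40 ± 0.066 from 30.6 ± 3.28 to 40.6 ± 0.985 (limma adjusted p = 0.000266) that passed in each alternative without a fold limit and with any library left out. So the largest change of Taf6 was in a mutant in which mia did not pass. Between bulk mutants, however, Taf6 passed in 0 of 10 pairs. The difference of Paf1L minus Ctr9L mutants was -0.26 (limma adjusted p = 0.0551). Muscle markers were lower in Ctr9L, inverted-cross and Paf1L mutants, as given above, and their part in the changes of Taf6 and Taf8 there was not tested. The inverted cross held 37.1, 36.0 and 36.9 (0.26, limma adjusted p = 0.00522) and the Leo1L cross 34.8, 37.3 and 33.0 (0.20, limma adjusted p = 0.0307). Against w1118 iso alone these changes of Taf6 were 0.16 (limma adjusted p = 0.130) and 0.10 (0.390). The Leo1L call also ended without w1118 replicate 3, w1118 iso replicate 3 or Leo1L replicates 1 or 2, at limma adjusted p values of 0.0580 to 0.170. In Cdc73L (31.5, 35.0 and 33.8) and Paf1L mutants (35.8, 32.2 and 33.3) the changes of 0.13 and 0.14 did not pass, though the latter did without w1118 iso replicate 2 (0.18, limma adjusted p = 0.0422). Sorted columns held 13.5, 16.7 and 18.8 in controls, 15.8, 15.8 and 14.2 in Leo1L and 18.5, 20.3 and 16.5 in Paf1L mutants, with changes of -0.08 and 0.18 that did not pass (SE 0.169).

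Taf8, which joins the complex as the partner of Taf10, was somewhat higher in 3 bulk mutants. Controls held 18.7, 22.5 and 25.8 in w1118 and 27.7, 20.7 and 21.2 in w1118 iso. The inverted cross held 32.4, 28.1 and 27.0, Leo1L mutants 25.7, 28.8 and 30.6 and Ctr9L mutants 27.1, 28.3 and 28.8, and all 3 groups overlapped the controls. From 22.7 ± 3.37 (SD, n = 6) the log2 fold changes of Taf8 were 0.35 ± 0.10 (limma adjusted p = 0.0113), 0.32 (0.0221) and 0.31 (0.0343). None of these was stable. Against w1118 iso alone the Leo1L and Ctr9L calls ended (0.29, limma adjusted p = 0.0711, and 0.28, 0.103), as they did after quantile normalization (0.0504 and 0.0724). The call in the inverted cross ended without its replicate 1 (limma adjusted p = 0.0777), that in Leo1L in 3 of 9 such fits, without w1118 iso replicate 2 or Leo1L replicates 2 or 3 (0.0503 to 0.109), and that in Ctr9L in 6 of 9, without w1118 replicate 1, w1118 iso replicates 2 or 3 or any Ctr9L replicate (0.0618 to 0.111). Paf1L mutants held 28.8, 26.3 and 26.3 (0.26, limma adjusted p = 0.0634), and Taf8 passed there without w1118 replicate 3 (0.31, 0.0230) or w1118 iso replicate 1 (0.32, 0.0133). Sorted columns were alike, with 19.5, 18.2 and 19.7 in controls, 19.4, 20.2 and 21.2 in Leo1L and 18.2, 23.1 and 19.6 in Paf1L mutants, and a change of 0.08 in each (SE 0.147).

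Taf4, the histone-fold partner of Taf12, had 149 to 197 in w1118, 195, 159 and 138 in w1118 iso and 206, 198 and 194 in Ctr9L mutants. The Ctr9L change of 0.24 ± 0.094 did not pass (limma adjusted p = 0.0713), but passed without w1118 replicate 3 (0.29, 0.0343) or w1118 iso replicate 1 (0.31, 0.0116), and when rescaled to one total (0.27, 0.00749). The inverted cross likewise passed for Taf4 without w1118 iso replicate 1 (0.25, limma adjusted p = 0.0288). Taf5, the WD40-repeat subunit, ran from 7.58 to 11.7 in bulk controls and 7.82 to 14.8 in bulk mutants. Its bulk changes were -0.08 to 0.26 with an SE of 0.139 and a lowest limma adjusted p of 0.190. Taf12 ran from 6.38 to 9.69 in bulk controls and 6.10 to 9.98 in bulk mutants, with changes of -0.04 to 0.12 and a lowest limma adjusted p of 0.581. In sorted cells Taf5 was at 3.16, 2.25 and 1.57 in Leo1L and 1.58, 1.29 and 1.09 in Paf1L mutants, the latter below all 3 controls but not past the test, and Taf4 and Taf12 overlapped between groups.

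**Figure D3:**
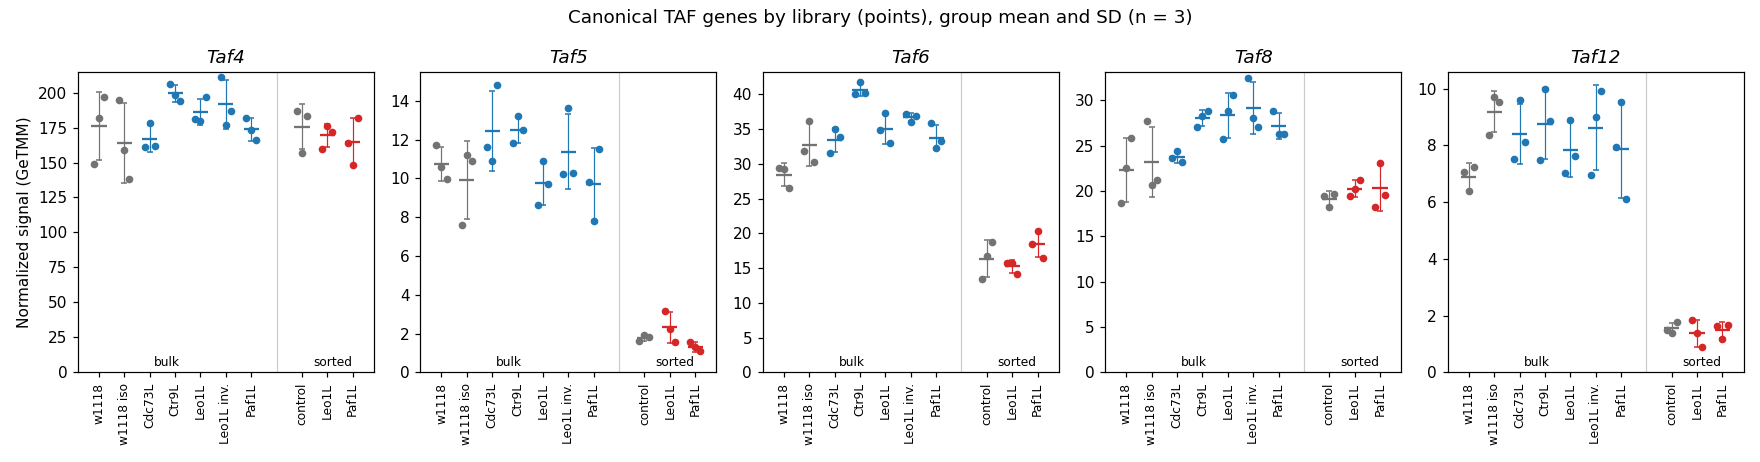
Signal of the 5 canonical subunits in every bulk library (left of the vertical line) and every sorted column (right of it), with the mean and SD of each group (n = 3). Taf6 in Ctr9L mutants (40.0 to 41.8) stands above all bulk controls (26.5 to 36.2), and no canonical subunit passed the test in sorted cells.

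The number of members called was near what all genes gave. Over the 10925 genes tested in bulk, 23.0% passed in Cdc73L mutants in either direction, where 2 of the 10 members did. In Ctr9L mutants 3 of 10 passed against 22.8% of all genes, in Leo1L mutants 4 against 30.4%, in the inverted cross 3 against 31.7% and in Paf1L mutants 2 against 28.9%. Of 9495 genes tested in sorted cells, 16.5% passed in Leo1L and 25.4% in Paf1L mutants, where 2 and 3 members did. By form, 8 of 25 bulk and 5 of 10 sorted comparisons passed for testis forms, and 6 of 25 and 0 of 10 for canonical forms, of which 0 had an unadjusted p under 0.05 in sorted cells. The median log2 fold change of the testis forms was 0.09, -0.13, 0.09, 0.10 and 0.12 in Cdc73L, Ctr9L, Leo1L, inverted-cross and Paf1L mutants, against medians of 0.015, -0.002, 0.029, 0.003 and 0.005 over all tested genes. That of the canonical forms was 0.07, 0.26, 0.14, 0.18 and 0.04. In sorted Leo1L and Paf1L mutants the medians were 0.35 and 0.01 for testis forms and -0.05 and -0.03 for canonical forms, against 0.021 and 0.055 over all genes. The bulk mutants share their controls, as do the sorted mutants.

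**Figure D4:**
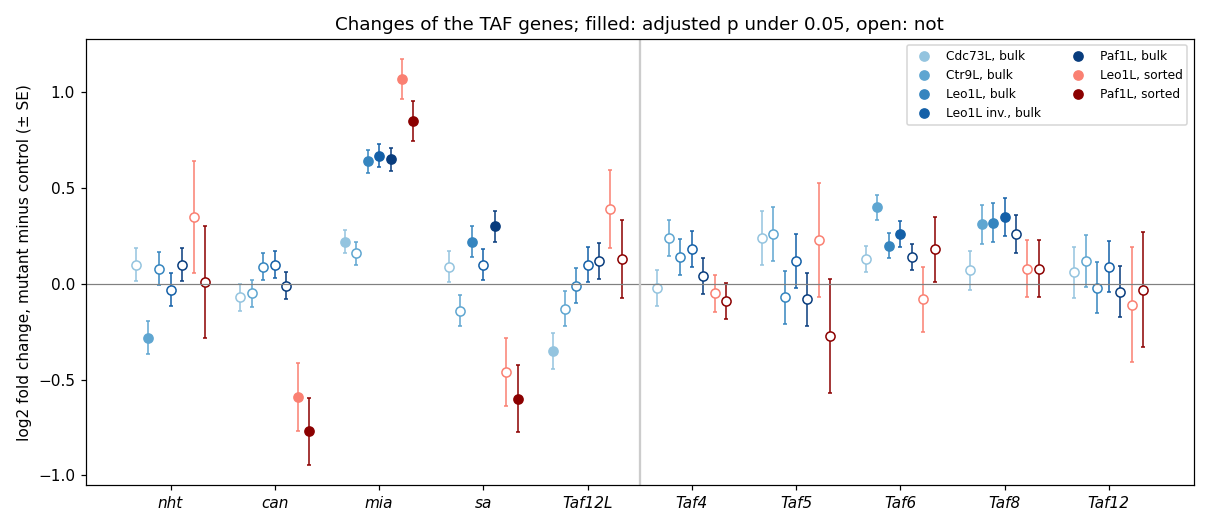
Log2 fold change of log2(signal + 1) of each member against controls, with its SE, in the 5 bulk and 2 sorted comparisons, filled where the limma adjusted p was under 0.05. The largest rise was that of mia in sorted Leo1L mutants (1.07) and the largest fall that of can in sorted Paf1L mutants (-0.77).

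Libraries of a group separated fully from the controls for few members. In bulk this held for mia in Cdc73L, Leo1L, inverted-cross and Paf1L mutants, and for Taf5 and Taf6 in Ctr9L mutants, where 18.0% of all genes separated. In the groups in which mia did so, the share of all genes was 15.3%, 21.9%, 20.6% and 21.3%. In sorted cells 3 members separated in Leo1L (mia, can and sa) and 4 in Paf1L mutants (with Taf5 added), against 34.9% and 38.5% of all genes.

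Pair ratios separated for some pairs in some mutants. The change of the log2 ratio of mia to Taf6 was 0.44 in Leo1L, 0.41 in the inverted cross and 0.51 in Paf1L mutants, each with mutant and control libraries apart (2-sided exact permutation test, p = 0.0119, the smallest that 3 against 6 libraries allow). In Cdc73L and Ctr9L mutants the same ratio changed by 0.09 (exact p = 0.393) and -0.25 (exact p = 0.0833). The ratio of can to Taf5 changed by -0.31 in Ctr9L (exact p = 0.0119) and -0.31 in Cdc73L mutants (exact p = 0.0357). In Ctr9L mutants the ratios of nht to Taf4 and sa to Taf8 changed by -0.52 and -0.44 (exact p = 0.0357 each), both lower. After Benjamini-Hochberg adjustment over 25 tests, 0 passed in bulk by this exact test, 7 had an unadjusted p under 0.05, and the lowest adjusted p was 0.0744. In sorted cells 3 columns against 3 cannot go below an exact p of 0.1. There the log2 ratio of mia to Taf6 changed by 1.15 in Leo1L and 0.68 in Paf1L mutants. That of can to Taf5 changed by -0.81 and -0.50, and that of sa to Taf8 by -0.55 and -0.68. On signal + 1, these 6 of the 10 ratio comparisons had groups that did not overlap, in mutants that share their controls. Without the added 1, can to Taf5 overlapped in Paf1L mutants, at 4.86 to 7.90 per kilobase against 7.03 to 8.16 in controls. No share over other gene pairs was computed. Of single genes, 34.9% and 38.5% did not overlap in sorted Leo1L and Paf1L mutants. The mia to Taf6 ratio per kilobase was 5.44 ± 0.236 in sorted Leo1L and 3.91 ± 0.815 in sorted Paf1L mutants (SD, n = 3 each).

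The bulk mutants were compared with one another directly. The level of mia was higher in Leo1L, inverted-cross and Paf1L mutants than in Cdc73L mutants by 0.41, 0.45 and 0.43 (limma adjusted p = 0.00102, 0.000713 and 0.000709), where 6.29%, 5.34% and 6.72% of all genes passed. Against Ctr9L mutants the differences of mia were 0.48, 0.51 and 0.50 (limma adjusted p = 0.000464, 0.000298 and 0.000262), where 5.28%, 2.86% and 4.91% passed. Higher levels of sa in Leo1L and Paf1L than in Ctr9L mutants also passed, at 0.35 and 0.43 (limma adjusted p = 0.0313 and 0.00908), and so did those of nht, at 0.36 and 0.38 (0.0459 and 0.0344). Taf12L was higher in the inverted cross and in Paf1L mutants than in Cdc73L mutants by 0.45 and 0.47 (limma adjusted p = 0.0158 and 0.00998). In all, 12 of 100 tests on members passed, against 3.21% over all genes and the 10 mutant pairs. Of these 12, 6 were of mia and 2 each of nht, sa and Taf12L. The pairs reuse the same 5 mutant groups, so the tests are not separate. Between the Leo1L crosses 0 of 10 members and 0.0366% of all genes passed by limma, and between sorted Paf1L and Leo1L mutants 0 of 10 and 0.442%, with 0 members at an unadjusted p under 0.05 in either.

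Other subunits of the basal machinery were read from lists of genes. Of 10 further TFIID genes tested in bulk, 2, 2, 1, 3 and 1 rose in Cdc73L, Ctr9L, Leo1L, inverted-cross and Paf1L mutants and 1 fell, in the inverted cross. In sorted cells 1 of 9 rose in each mutant. Over all genes, 10.4%, 12.0%, 15.4%, 15.8% and 13.8% rose and 12.6%, 10.8%, 15.1%, 15.9% and 15.0% fell in the bulk mutants in this order, and 9.53% and 13.0% rose and 6.95% and 12.3% fell in sorted Leo1L and Paf1L mutants. Taf1, the largest subunit and scaffold, went from 61.2 in bulk controls to 81.3 in Leo1L, 81.7 in the inverted cross, 74.1 in Paf1L and 71.2 in Ctr9L mutants, log2 fold changes of 0.41, 0.41, 0.27 and 0.22 (limma adjusted p = 1.51e-05, 1.35e-05, 0.000834 and 0.00770). Without Ctr9L replicate 1 the last was 0.18 (limma adjusted p = 0.0646). In Cdc73L mutants Taf1 passed only without w1118 iso replicate 1 (0.16, limma adjusted p = 0.0463) or Cdc73L replicate 1 (0.19, 0.0363) or when rescaled or quantile normalized. In sorted cells Taf1 went from 44.0 to 68.5 and 76.7, changes of 0.64 and 0.80 (limma adjusted p = 0.00671 and 0.00111). Tbp, which binds the TATA box, rose in Cdc73L mutants by 0.43 and in Ctr9L mutants by 0.34. For Cdc73L the Tbp call ended without Cdc73L replicate 1 (0.41, limma adjusted p = 0.0526), with the accessory gland score (0.43, 0.0712) and against w1118 alone (0.37, 0.0579). That in Ctr9L mutants ended against w1118 alone (0.28, 0.146), rescaled (0.0526), without the filter (0.0530) and in each of 6 fits without a w1118 replicate 2 or 3, w1118 iso replicate 1 or any Ctr9L replicate (0.0581 to 0.137).

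Trf2, a TBP-related factor that serves promoters without a TATA box, rose in all 7 mutant comparisons. From 165 ± 13.6 in bulk controls (SD, n = 6) it went to 267, 244, 319, 311 and 292 in Cdc73L, Ctr9L, Leo1L, inverted-cross and Paf1L mutants, log2 fold changes of 0.69, 0.57, 0.95, 0.91 and 0.83 with an SE of 0.066 (limma adjusted p between 5.36e-09 and 1.09e-05). Sorted Trf2 went from 108 to 188 and 148, changes of 0.80 and 0.45 (limma adjusted p = 0.000211 and 0.00848). The other factor, Trf, passed only in sorted Leo1L mutants (0.52, limma adjusted p = 0.0169), and not without control replicate 3 or Leo1L replicate 2 or 3 (0.0755 to 0.0833).

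The coactivator SAGA shares several TAFs with TFIID, and 8 of the 9 genes listed for it were found in the tables. Of these 1, 2, 2, 2 and 1 rose in the bulk mutants in the order above, with 2 lower in the inverted cross, and 2 and 1 rose in sorted Leo1L and Paf1L mutants. The one raised in all 7 comparisons was wda, which takes the place of Taf5 in SAGA. Its signal went from 11.5 ± 0.874 in bulk controls to 47.2 ± 5.74 in Leo1L, 53.5 ± 15.9 in the inverted cross and 46.6 ± 3.75 in Paf1L mutants, log2 fold changes of 1.94, 2.08 and 1.92 (SE 0.124, limma adjusted p = 2.67e-09, 9.52e-10 and 2.74e-09). Ctr9L mutants held 23.6 (0.97) and Cdc73L mutants 16.4 (0.47, limma adjusted p = 0.0112). The Cdc73L call for wda ended without Cdc73L replicate 2 (limma adjusted p = 0.0535) and with the accessory gland score (0.123). Sorted wda went from 7.18 to 50.6 and 77.1, changes of 2.66 and 3.24 (limma adjusted p = 3.52e-07 and 5.42e-08). Taf12 is itself on the SAGA list and did not pass.

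The testis TAFs share targets with tMAC, the testis form of a MuvB-type complex that also turns on spermatocyte genes. Of its 8 genes, 1, 1, 2, 2 and 3 rose in the bulk mutants and 2 in each sorted mutant, and 0 fell. In limma, topi, the zinc-finger subunit, went from 101 in bulk controls to 127, 125, 129 and 127 in Ctr9L, Leo1L, inverted-cross and Paf1L mutants (0.33, 0.31, 0.35 and 0.33) and from 79.2 to 123 and 135 in sorted cells (0.64 and 0.76, limma adjusted p = 0.000820 and 0.000139). The Ctr9L call for topi ended without Ctr9L replicate 1 (0.29, limma adjusted p = 0.0535). Since topi is also among the spermatocyte markers, it carries part of their rise. The near-identical neighbours achi and vis may share reads, so their calls in 4 and 2 comparisons are uncertain. Of 3 testis bromodomain genes, tbrd-2 fell in bulk Ctr9L mutants (-0.26, limma adjusted p = 0.0189) and in sorted Paf1L mutants, from 66.5 to 44.1 (-0.59, limma adjusted p = 0.00917). The bulk call for tbrd-2 ended without Ctr9L replicate 2 or 3 (0.0660 and 0.0896), rescaled (0.0900) and after quantile normalization (0.101).

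Spermatid genes reported to need the testis TAFs moved in both directions. Of 5, the numbers higher and lower were 0 and 1 in Cdc73L, 0 and 1 in Ctr9L, and 1 and 3 in each of the Leo1L, inverted-cross and Paf1L mutants. In sorted cells 1 rose in Leo1L, and 1 rose and 1 fell in Paf1L mutants. The gene dj (don juan), for a sperm tail protein, went from 894 in bulk controls to 668, 649, 594, 581 and 592 in the 5 mutants, log2 fold changes of -0.40, -0.45, -0.57, -0.62 and -0.58 with an SE of 0.106 (limma adjusted p between 0.000245 and 0.0115). The Cdc73L call for dj ended without Cdc73L replicate 1 (-0.36, limma adjusted p = 0.0602), after quantile normalization (-0.29, 0.0909), with the accessory gland score (-0.40, 0.0586) and against w1118 alone (-0.26, 0.139). Against w1118 alone the Ctr9L call ended too (-0.31, 0.0860). In sorted cells dj was at 789 in controls, 645 in Leo1L (-0.30, limma adjusted p = 0.0694) and 524 in Paf1L mutants (-0.60, limma adjusted p = 0.00107), and the Leo1L change passed without Leo1L replicate 3 (-0.41, 0.0221) and after quantile normalization (-0.36, 0.0251). Late spermatid markers were also lower in bulk mutants, as given above. In sorted Paf1L mutants 3 of these 5 markers were called lower, with a median log2 fold change of -0.22. None was called in sorted Leo1L mutants, where the median was 0.07. The part of these markers in the fall of dj was not tested in either table.

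The mitofusin-like gene fzo went from 236 to 170, 171 and 175 in the Leo1L, inverted-cross and Paf1L bulk mutants, changes of -0.46, -0.47 and -0.42 (limma adjusted p = 0.0110, 0.00986 and 0.0208). Each of these ended without 1 mutant library, Leo1L replicate 1 (0.0713), inverted-cross replicate 3 (0.0824) and Paf1L replicate 3 (0.116), and the last also against w1118 iso alone (0.0782), while fzo passed in Cdc73L mutants without w1118 replicate 1 (0.0450) or w1118 iso replicate 3 (0.0403). In sorted cells fzo was at 177 in controls, 203 in Leo1L and 174 in Paf1L mutants. By contrast janB, a sperm protein gene, rose in the same 3 bulk mutants, from 448 to 516, 544 and 517 (0.21, 0.28 and 0.21, limma adjusted p = 0.0146, 0.00162 and 0.0141), and in sorted cells, from 393 to 484 and 463 (0.30 and 0.23, limma adjusted p = 0.0115 and 0.0294). The janB calls ended without Leo1L replicate 2 (0.0678) and Paf1L replicate 2 (0.0583) in bulk and without Leo1L replicate 2 (0.0516) or any of 5 columns in sorted Paf1L mutants (0.0594 to 0.123), and janB passed in Ctr9L mutants without w1118 replicate 3 (0.0472). Against w1118 iso alone the Leo1L and Paf1L bulk calls for janB ended (limma adjusted p = 0.129 and 0.141), and without the trend both sorted calls did (0.0848 and 0.128). Mst87F changed by -0.18, -0.17 and -0.16 in these bulk mutants, and none of these calls held when each library was rescaled to one total (limma adjusted p = 0.141, 0.0803 and 0.263) or, in 2, 3 and 4 of 9 fits, when a library was left out (0.0536 to 0.242). Of the meiotic genes reported not to need the testis TAFs, CycB did not pass and twe passed only in Cdc73L mutants, lower. Of 8 Polycomb group genes, 1, 1, 2, 2 and 1 rose in the bulk mutants, 0 fell and none passed in sorted cells.

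Across the 21 bulk libraries, the genes most like each testis form were read from Pearson's r of log2(signal + 1) among 10924 other genes, as a description, since libraries share groups and depth. For mia they were CG33339 (r = 0.967), para (0.963) and TwdlG (0.951). For nht they were sa (0.803), sni (0.782) and tfc (0.757), and for sa CG8141 (0.824), tfc (0.820) and TfIIB (0.818). The correlations were lower for can, led by CG32813 (0.728), Syx7 (0.721) and Mcm2 (0.690), and for Taf12L, led by CG46457 (0.737), MSBP (0.717) and Ugt303B3 (0.715). So nht and sa followed each other over the libraries, while mia stood with genes outside the set, and its own r with sa was 0.599.

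Both neighbours of mia were measured. Pcmt, the next gene upstream on the same strand at a distance of 1654 bases, went from 86.9 in bulk controls to 101, 105 and 99.9 in Leo1L, inverted-cross and Paf1L mutants, log2 fold changes of 0.22, 0.27 and 0.20 (limma adjusted p = 0.00240, 0.000442 and 0.00529). CG2519, 339 bases downstream on the same strand, changed by 0.09, 0.03 and -0.04 there and did not pass. In sorted cells CG2519 rose in Paf1L mutants, from 14.6 to 28.2 (0.90, limma adjusted p = 0.00444), and was at 18.6 in Leo1L mutants (0.31, limma adjusted p = 0.328). Sorted Pcmt went from 77.3 to 95.4 in Leo1L (0.30, limma adjusted p = 0.0401) and 89.6 in Paf1L mutants (0.21, limma adjusted p = 0.112). The changes of mia there were 1.07 and 0.85, and whether they are tied to those of its neighbours was not tested.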

How the data were processed

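The authors deposited 1 table per experiment, with 1 normalized signal per gene and library named GeTMM in the labels. The submitters' processing notes name STAR, Salmon, edgeR 3.34.0, DESeq2 and the build dm6, with no role or order. The strand setting, annotation and filters are not given in the sources used here. Columns were matched to samples through the labels, and no column was left over. Values near 1 read had medians of 0.0904 in bulk for transcripts up to 700 bases (n = 108) and 0.101 for those over 1500 bases (n = 26), and 0.0966 (n = 293) and 0.112 (n = 175) in sorted columns, so the signal looked undivided by length. Whole reads could not be recovered for nearly all genes, so no count model was used. The design planned for normalized signal was kept.

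The main test was limma (version 3.58.1, under R 4.3.3), with a mean-variance trend in eBayes, on log2(signal + 1), a scale that understates the change of low genes. Genes with a mean of at least 1 were tested in 1 fit per table with 1 mean per group. Bulk mutants were set against the average of both stock means. P-values were adjusted by Benjamini-Hochberg over all tested genes of a comparison, and a gene was called at an adjusted p under 0.05 at any fold change. Pair ratios, log2(testis form + 1) minus log2(canonical form + 1), were tested with a 2-sided exact permutation test over libraries in Python 3.11.15 with scipy 1.17.1. Nothing in the labels says that bulk replicates came from separate cultures, so p-values measure the spread between these samples, which may be technical. Sorted cells were prepared in 3 independent experiments, per the labels. Positions and transcript lengths came from Ensembl release 115 by symbol or synonym for 13643 genes (99.9%).

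Genes named are the 10 members, the 3 genes most like each testis form, up to 4 genes per list called in the most mutant comparisons, and the mutated genes. Genes that overlap or neighbour a member were added after the values were seen. The members and lists were chosen with earlier results of these data known. Alternatives were another pseudocount (0.1 or 5), another filter, no trend, rescaling to 1 total, quantile normalization, the replicate block, single control stocks, the accessory gland score as a covariate, a fold limit and each library left out. The fits were tested on simulated data.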

Additional observations from a re-analysis of the deposited data

Results flagged for a closer look

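The signal of can in w1118 iso replicate 1 was 36.2, while the other 5 bulk controls lay between 42.3 and 43.1, so this library stood apart from the others by Dixon's test at the 95% level, which chance alone passes in about 1 in 20 groups. For 3 genes and 1 ratio every mutant library moved one way against the control mean in bulk and the opposite way in sorted cells, and the difference was not tested. The share of all genes that meet this loose rule was not counted. The log2 fold change of can in Leo1L mutants was 0.09 in bulk and -0.59 in sorted cells. Taf6 changed by 0.20 in bulk Leo1L mutants and by 0.26 in the inverted cross, against -0.08 in sorted Leo1L mutants. The sorted Leo1L columns of Taf6 lay within the control range (limma adjusted p = 0.813). The values of sa were 0.22 in bulk and -0.46 in sorted Leo1L mutants, and 0.30 and -0.60 in bulk and sorted Paf1L mutants. The log2 ratio of nht to Taf4 changed by -0.21 in the inverted cross and by 0.40 in sorted Leo1L mutants.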

How the results depend on the processing

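None of the called values of the 10 members in the 7 mutant comparisons changed direction in an alternative. Where a log2 fold change of 1 or more was required too, 0 members passed by limma in each of the 5 bulk mutants, in sorted Paf1L mutants, between the stocks and between mutants, and 1 (mia) in sorted Leo1L mutants. In Cdc73L mutants 1 member passed when rescaled to 1 total, 1 against w1118 iso alone and 0 with the accessory gland score. In Leo1L mutants 1 passed against w1118 iso alone and 2 with both stocks as 1 control group, an alternative chosen after seeing the data. In Paf1L mutants 4 passed when rescaled. Between the stocks 0 passed when rescaled, after quantile normalization and with the replicate block. With 1 library left out, 1 to 2 members passed in Cdc73L, 1 to 4 in Ctr9L, 1 to 4 in Leo1L, 2 to 4 in inverted-cross, 1 to 3 in Paf1L, 1 to 2 in sorted Leo1L and 2 to 3 in sorted Paf1L mutants, and 0 to 1 between the stocks. Of the single-gene values, 1304 kept direction and call, 73 lost and 19 gained one. With the replicate block 2, 3, 3, 3 and 2 members passed in the bulk mutants in the order Cdc73L, Ctr9L, Leo1L, inverted cross and Paf1L, with 2 and 3 in the sorted ones, so that sa in Leo1L and Taf12L between the stocks were lost. In bulk the numbers showed no clear pairing of libraries. There 22 of 63 same-number correlations were over 0.1, and 7 of 21 libraries correlated best with their own number. In sorted columns 4 of 9 were over 0.1, and 5 of 9 correlated best with their own number. The median r there was 0.0784 for same numbers and -0.0538 for other numbers, too few columns to decide on a pairing. Rescaling moved the balance of all calls to 1807 higher and 1085 lower from 1135 and 1381 in Cdc73L, to 2418 and 1370 from 1679 and 1647 in Leo1L and to 2272 and 1282 from 1513 and 1640 in Paf1L mutants; the cause was not tested. The low sorted signal of Taf5 and Taf12, near 1 or 2, limits what can be seen of them there.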

Other observations

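The neighbours of Taf8 were measured too. CG7135, 170 bases downstream on the same strand, rose in all 5 bulk mutants, from 2.35 ± 0.358 (SD, n = 6) to between 4.28 and 5.28, log2 fold changes of 0.66 to 0.91 (limma adjusted p between 1.74e-05 and 0.000511). In sorted cells CG7135 was at 1.55 in controls, 4.08 in Leo1L and 3.54 in Paf1L mutants (limma adjusted p = 0.0711 and 0.0824). Mvb12, 655 bases upstream on the opposite strand, rose from 70.6 to 88.2, 92.4 and 95.9 in Leo1L, inverted-cross and Paf1L mutants (0.33, 0.39 and 0.45, limma adjusted p = 0.00618, 0.00164 and 0.000557), changed by 0.02 and 0.08 in Cdc73L and Ctr9L mutants without passing, and rose from 79.7 to 111 and 113 in sorted Leo1L and Paf1L mutants (0.46 and 0.49, limma adjusted p = 0.0160 and 0.00757). These genes were looked at after the values of Taf8 were known.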
